A study of Mus musculus with 12 samples.

Results

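The gene set described here holds 32 genes listed for resting, or homeostatic, microglia, the resident macrophages of the brain and spinal cord. Not all are particular to the resting state or to microglia. Cd68 is a gene of phagocytes, and Cd53, Laptm5, Vav1 and Fermt3 are genes of blood cells. The genes were taken from a fixed list of symbols and looked up in GENCODE vM21 (mouse genome build GRCm38). All 32 were found among the 35675 genes with summed counts, and all 32 were among the 13456 genes tested. They also passed the same filter on low counts when it was applied to the control and RalA cKO libraries alone.

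The cells were not sorted as microglia. Spinal cords of mice at postnatal day 10 were dissociated, and cells enriched in oligodendrocytes were sorted by red fluorescence of the reporter tdTomato and by large forward scatter, a measure of size. In every mouse the reporter, Rosa26-StopFlox-TdTomato, was switched on by CnpCre, a Cre recombinase under the control of Cnp, a gene of myelinating glia. Control mice carried CnpCre and the reporter. RalA cKO mice carried in addition floxed alleles of the small GTPase RalA (RalAflox/flox), and RalAB cKO mice carried floxed alleles of both RalA and RalB (RalAflox/flox:RalBflox/flox). RalA and RalB are Ras-related GTPases that act in vesicle delivery to the plasma membrane. There were 4 mice per genotype and 1 library per mouse. Mice lacking RalB alone were not analysed here, so the loss of RalB cannot be told apart from the loss of both.

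Microglia arise from yolk sac progenitors and not from the neuroectoderm that gives rise to oligodendrocytes. They depend on signalling through the receptor Csf1r, survey the tissue with motile processes that follow purines and chemokines, and engulf debris through complement and Fc receptors. In developing white matter they also clear and support oligodendrocyte lineage cells. When microglia react to damage or to myelin debris, genes such as P2ry12 and Tmem119 typically fall and genes of phagocytosis and lipid handling rise.

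PU.1, encoded by Spi1, is a transcription factor of the ETS family that macrophages and microglia require. Its preferred site holds the core GAGGAA. The bases upstream of the RefSeq start are shown for 5 abundant genes of the set. All 5 were higher in RalAB cKO, as were 30 of the 32 and 9.39% of all tested genes. Csf1r, Unc93b1 and Selplg, which were also higher and more abundant than Cx3cr1, are not shown. Each sequence is written 5′ to 3′ on the strand of the gene, in lower case, with GAGGAA or its reverse complement TTCCTC in capitals.

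Fcrls: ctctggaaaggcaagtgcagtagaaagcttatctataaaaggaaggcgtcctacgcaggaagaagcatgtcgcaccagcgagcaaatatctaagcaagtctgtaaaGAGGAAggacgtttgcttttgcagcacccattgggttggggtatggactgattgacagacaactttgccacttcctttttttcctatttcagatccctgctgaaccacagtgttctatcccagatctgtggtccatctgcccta
Laptm5: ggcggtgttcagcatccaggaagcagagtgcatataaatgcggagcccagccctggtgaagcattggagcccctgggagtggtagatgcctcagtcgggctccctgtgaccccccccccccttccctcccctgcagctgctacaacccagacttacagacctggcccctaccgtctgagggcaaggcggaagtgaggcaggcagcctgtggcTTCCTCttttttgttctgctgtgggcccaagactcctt
Ucp2: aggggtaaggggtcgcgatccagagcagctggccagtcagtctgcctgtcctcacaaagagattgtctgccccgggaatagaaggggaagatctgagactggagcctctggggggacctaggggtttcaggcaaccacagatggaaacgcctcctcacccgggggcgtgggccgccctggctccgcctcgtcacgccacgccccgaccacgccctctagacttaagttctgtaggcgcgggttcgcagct
Cd68: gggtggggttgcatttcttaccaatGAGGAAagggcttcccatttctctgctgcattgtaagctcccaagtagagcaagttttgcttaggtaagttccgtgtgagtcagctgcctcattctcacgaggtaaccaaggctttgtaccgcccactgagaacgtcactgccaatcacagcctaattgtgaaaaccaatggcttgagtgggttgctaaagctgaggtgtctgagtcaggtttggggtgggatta
Cx3cr1: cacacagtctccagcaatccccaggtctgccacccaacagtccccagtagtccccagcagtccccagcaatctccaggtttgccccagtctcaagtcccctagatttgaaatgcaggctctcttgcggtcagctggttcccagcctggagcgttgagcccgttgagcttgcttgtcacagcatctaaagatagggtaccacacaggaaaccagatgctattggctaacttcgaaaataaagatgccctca

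These windows of 250 bases lie at chr3:87263525-87263774 (Fcrls, minus strand), chr4:130913066-130913315 (Laptm5, plus strand), chr7:100493108-100493357 (Ucp2, plus strand), chr11:69666171-69666420 (Cd68, minus strand) and chr9:120068297-120068546 (Cx3cr1, minus strand) in RefSeq's GRCm38.p6. The core began 144 bases before the start in Fcrls, 38 bases before it in Laptm5 and 225 bases before it in Cd68. In Laptm5 it lay on the other strand. The windows of Ucp2 and Cx3cr1 did not hold these letters. The RefSeq starts used here differ from the gene spans of GENCODE vM21 used for the counts. By those spans the window of Cx3cr1 lies within the gene (chr9:119901616-120069879). The windows of Fcrls, Laptm5 and Ucp2 lie partly within theirs, and the core in Fcrls and in Laptm5 falls inside the gene. The window of Cd68 lies outside its gene. RefSeq promoters were at hand for 23 of the 32 genes, and 13 of these held GAGGAA or TTCCTC, as did 13 of their 27 windows (48.1%) and 23.3% of all 32851 windows of that length. The longer form GAGGAAGT or ACTTCCTC, which contains the core, stood in the window of 1 gene, Vav1, and in 2.44% of all windows. A match of letters describes the sequence and does not show that a factor binds there.

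The depth of the libraries was 10.93 to 15.44 M estimated counts. At 1 CPM or more stood 12263 to 13057 genes, where CPM means counts per 1 M counts after TMM scaling of library sizes. The label of the sort fitted its markers: 12 oligodendrocyte genes summed to 96950 to 133190 CPM, while the 32 microglial genes summed to 211 to 1890.5 CPM (0.0199% to 0.177% of counts). Rala was 35.5 to 59.3 CPM across control libraries, 33.1 to 42.7 CPM across RalA cKO and 32.2 to 42.9 CPM across RalAB cKO, and neither Rala nor Ralb passed the test in a mutant, so the level of the whole gene did not check these labels. Control 3 stood apart in genes of other cell types. Its 10 neuronal genes summed to 102 CPM against 27.9 to 33.3 CPM in the other controls, its 8 endothelial genes to 55.6 CPM against 20.2 to 25.5 CPM, and its 8 astrocyte genes to 599 CPM against 358 to 385 CPM.

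Levels between genes were compared as TPM (transcripts per 1 M transcripts, which takes transcript length into account). Csf1r, the receptor for the survival factors CSF1 and IL-34, was the most abundant member in control at 51.6 ± 22.04 TPM (SD, n = 4). It was followed by Unc93b1 at 41.3 ± 3.004 TPM, Laptm5 at 37.8 ± 15.9 TPM and Fcrls at 30.7 ± 14.1 TPM, and the spreads of these 4 genes overlapped. At the low end stood Il6ra at 0.983 ± 0.399 TPM and Ptprc at 0.530 ± 0.397 TPM. In RalAB cKO the order began with Csf1r at 158 ± 38.2 TPM, Fcrls at 135 ± 25.8 TPM, Laptm5 at 121 ± 25.6 TPM and Ucp2 at 96.4 ± 22.98 TPM. Unc93b1 was the first of the 32 by mean TPM in RalA cKO, the second in control and the sixth in RalAB cKO. The rank of P2ry12 was 7 in control, 15 in RalAB cKO and 11 in RalA cKO.

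**Figure D1:**
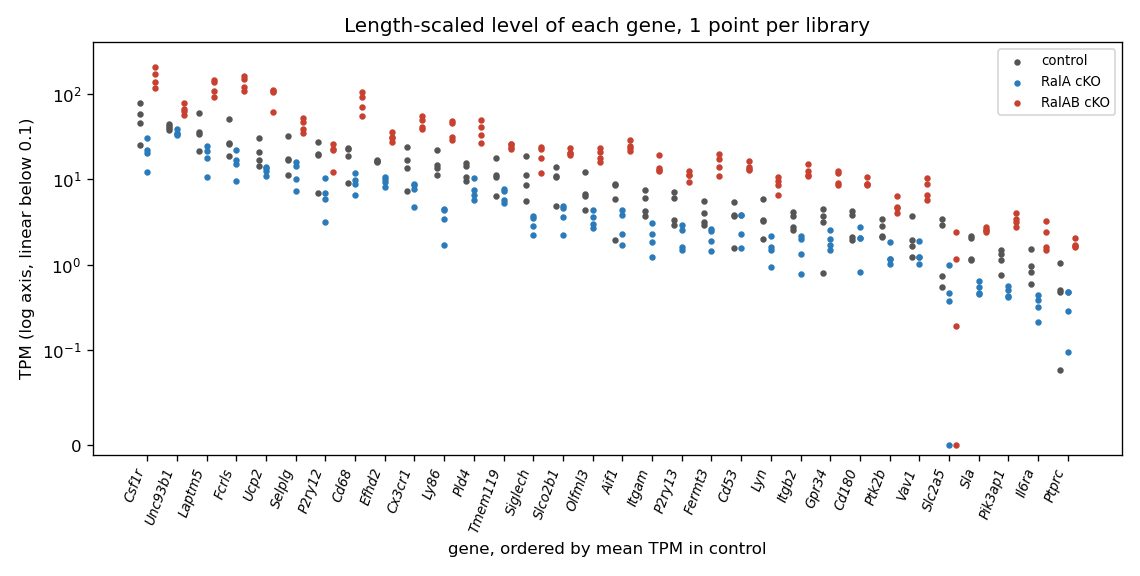
TPM of each of the 32 genes in each library, on a log axis that is linear below 0.1, with genes ordered by their mean in control and 1 point per library. RalAB cKO points lie above the control points of the same gene for most genes. The points of P2ry12, Slc2a5, Siglech and, by a little, Il6ra overlap with control.

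The microglial genes were higher in RalAB cKO than in control almost throughout the set. Summed over the 32 genes, control mice 1 to 4 held 326, 476, 644 and 449.6 CPM and RalAB cKO mice 1 to 4 held 1089.6, 1392, 1890.5 and 1866 CPM. Every RalAB cKO library was thus above every control library, and the ratio of means was 3.29. Of the 32 genes 30 rose and 0 fell with edgeR at an adjusted p under 0.05, where 9.39% of all tested genes rose and 9.02% fell. For 29 of the 32 the groups lay fully apart, all on the high side, against 9.88% of all tested genes, and 0 lay apart on the low side (9.34%). The median log2 fold change of the 32 was 1.61, which is 3.05-fold, and that of all tested genes was -0.01. P2ry12 and Slc2a5 did not pass the test. At an unadjusted p under 0.05 edgeR gave 31 higher and 0 lower (16% of all tested genes higher and 16% lower). DESeq2 called 31 higher (11.7% of all tested genes) and limma-voom 30 (15.8%), and both called 0 lower. In bulk libraries of this kind more microglial cells in the sort and more RNA of these genes per cell cannot be told apart.

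Relative to the same controls, RalA cKO libraries held less of most of these genes. RalA cKO mice 1 to 4 held 304, 211, 324 and 301 CPM in sum. These lay below every control library, although control 1 at 326 CPM was only just above RalA cKO 3 at 324 CPM. The ratio of means was 1.66 in favour of control. Of the 32 genes 10 fell and 0 rose, where 1.07% of all tested genes fell and 1.71% rose. The 10 were Il6ra, Siglech, Itgam, Cd180, Ly86, Slco2b1, Pik3ap1, Sla, Ptk2b and Efhd2. The log2 fold change was below 0 for 30 of the 32, with a median of -0.83 for the set and -0.02 for all tested genes, and groups did not overlap for 14 (5.77% of all tested genes in that direction). At an unadjusted p under 0.05, 25 were lower and 0 higher by edgeR, where 11.3% of all tested genes were lower. Both DESeq2 and limma-voom called 19 lower and 0 higher, where they called 3.49% and 5.51% of all tested genes lower.

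The number of genes that fell depended on single libraries, as did that of all genes. The count of 10 (1.07% of all tested genes) became 19 without control 1 (2.47%), 2 without control 2 (0.241%), 1 without control 3 (0.478%), 3 without RalA cKO 2 (0.394%) and 2 without RalA cKO 4 (0.175%). The median log2 fold change ranged from -1.02 without control 1 to -0.64 without control 3. Control 3, in which neuronal, endothelial and astrocyte genes were highest, was also the highest control for 24 of the 32 genes, and control 1 was the lowest for 25. In the same comparison 6 of 9 tested neuronal and 6 of 7 endothelial genes were lower at an unadjusted p under 0.05. Of all tested genes 11.3% were. With edgeR 0 of either list passed the adjusted threshold. DESeq2 and limma-voom each called 2 neuronal genes lower, and they called 2 and 3 endothelial genes lower (3.49% and 5.51% of all tested genes). The part of these cells in the lower microglial level was not tested. Only Ly86 kept its call in each of the 22 other settings tried.

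Between the mutants the difference was wider. Against RalA cKO, 31 of the 32 genes were higher in RalAB cKO and 0 lower with edgeR (7.03% and 4.5% of all tested genes), and the same held at an unadjusted p under 0.05 (12.1% of all tested genes higher) and with DESeq2 (8.29%) and limma-voom (10.5%). The groups did not overlap for 31 genes (9.65% of all tested genes), and for 0 on the low side (7.63%). The median log2 fold change was 2.52, or 5.72-fold, against -0.03 for all tested genes, and the ratio of summed means was 5.47. All 31 calls stood in each of the 22 other settings. Slc2a5 was the exception at 1.23 ± 0.91 (adjusted p = 0.478). Both comparisons with control use the same 4 control libraries, so their values are given side by side below and were not correlated.

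**Figure D2:**
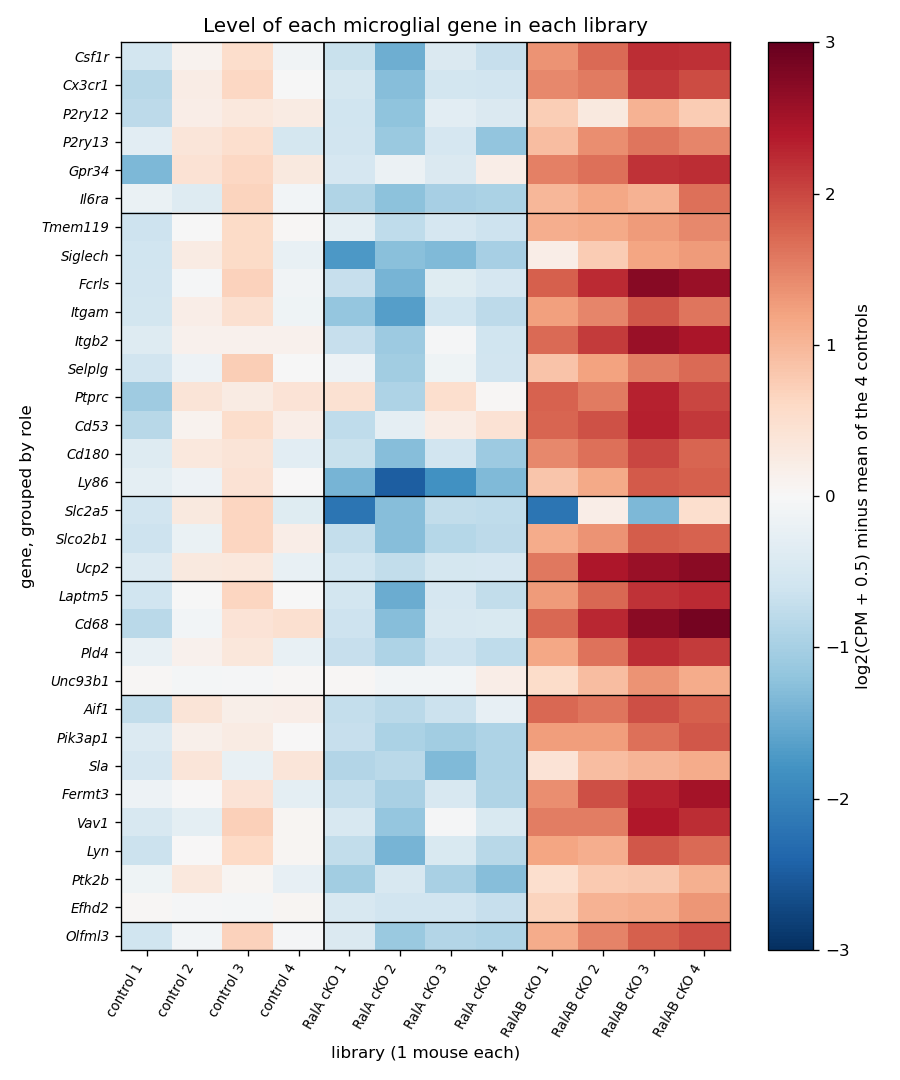
Each cell gives log2(CPM + 0.5) of 1 gene in 1 library minus the mean of the 4 controls, with genes grouped by role in rows and libraries in columns. RalAB cKO columns are red except for Slc2a5, RalA cKO columns are mostly blue, and the palest row is Unc93b1 in control and RalA cKO.

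Of 6 surface receptors, 5 rose in RalAB cKO (9.39% of all tested genes) and 1, Il6ra, fell in RalA cKO (1.07%). Csf1r (chromosome 18) stood at 57.8, 90.98, 122 and 78.7 CPM across controls, 52.997, 30.3, 62.8 and 52.3 CPM across RalA cKO and 215, 275, 390.1 and 387 CPM across RalAB cKO. RalAB cKO libraries were all above the controls, and RalA cKO libraries overlapped with control 1. The log2 fold change ± standard error was 1.86 ± 0.27 (adjusted p = 0.000496) in RalAB cKO and -0.82 ± 0.26 (adjusted p = 0.102) in RalA cKO. Exons of Csf1r share 15.1% of their bases with Hmgxb3 on the opposite strand, a gene at up to 178 CPM, and the sources used here do not give whether the counting used strand. Cx3cr1, the receptor for the neuronal chemokine fractalkine, lay at 16.6 to 46.8 CPM across controls, 12.2 to 20.7 CPM across RalA cKO and 83.4 to 133 CPM across RalAB cKO, a rise of 3.29-fold over control.

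P2ry12 (chr3:59216272-59262871), the ADP receptor that steers microglial processes toward injury, had the smallest difference among the receptors in RalAB cKO and did not pass. Its levels were 6.81, 14.04, 15.3 and 14.5 CPM across controls, 7.78, 4.95, 9.60 and 8.82 CPM across RalA cKO and 20.6, 14.9, 25.5 and 20.8 CPM across RalAB cKO. RalAB cKO 2 fell between control 2 and control 3, so the groups overlapped, and control 1 was far below the other controls. Against control RalAB cKO differed by 0.69 ± 0.25 (adjusted p = 0.0616) and RalA cKO by -0.70 ± 0.26 (adjusted p = 0.129). With transcript length offsets the value in RalAB cKO was 0.33 (adjusted p = 0.587), while DESeq2 gave 0.71 (adjusted p = 0.0306), and over all settings the adjusted p ran from 0.0306 to 0.587. Against RalA cKO it was higher by 1.39 ± 0.25 (adjusted p = 0.00149). Its neighbour P2ry13, another ADP receptor encoded nearby on chromosome 3, rose 2.55-fold in RalAB cKO, from 4.64 to 10.002 CPM to 13.6 to 22.1 CPM, and was 2.78 to 4.71 CPM across RalA cKO. Gpr34, a lysophosphatidylserine receptor, was 0.982 to 5.25 CPM across controls, 2.14 to 3.77 CPM across RalA cKO and 10.2 to 16.8 CPM across RalAB cKO, where it was 3.67-fold higher. Il6ra, the ligand-binding chain of the interleukin-6 receptor, had 2.14 to 5.001 CPM across controls, 0.973 to 1.34 CPM across RalA cKO and 6.38 to 10.3 CPM across RalAB cKO. It fell in RalA cKO (-1.36 ± 0.31, adjusted p = 0.0277) and rose in RalAB cKO (1.29 ± 0.28, adjusted p = 0.00429), and the fall was lost without control 3, RalA cKO 2 or RalA cKO 4 (log2 -1.48 to -1.03 over the libraries left out).

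All 10 surface markers and adhesion molecules rose in RalAB cKO, where 9.39% of all tested genes rose. Fcrls (chr3:87250758-87263738), an Fc receptor-like scavenger receptor and a marker of mouse microglia, was at 23.2, 33.6, 56.4 and 32.3 CPM across controls, 21.3, 12.9, 26.9 and 24.1 CPM across RalA cKO and 122, 164, 231 and 211 CPM across RalAB cKO. It rose by 2.32 ± 0.29 (adjusted p = 0.000237), and the lowest RalAB cKO library was above the highest control. In RalA cKO its values mixed with those of control 1 (-0.77 ± 0.29, adjusted p = 0.150). Itgb2 (chr10:77530252-77565708) and Itgam encode the chains of complement receptor CR3, through which microglia take up complement-tagged material. Itgb2 was 2.75, 4.20, 4.19 and 4.18 CPM across controls, 2.14, 1.503, 3.67 and 2.35 CPM across RalA cKO and 13.4, 17.7, 25.3 and 22.9 CPM across RalAB cKO. Its rise of 2.37 ± 0.26 (adjusted p = 2.39e-05) was among the 3 with the smallest p, and in RalA cKO it differed by -0.66 ± 0.28 (adjusted p = 0.172). Itgam, its partner chain, was 9.04 to 19.1 CPM across controls, 3.98 to 8.73 CPM across RalA cKO and 32.2 to 50.4 CPM across RalAB cKO, and it fell in RalA cKO (-1.10 ± 0.25, adjusted p = 0.0300) and rose 2.91-fold in RalAB cKO. The fall of Itgam was lost without control 2, control 3, RalA cKO 1, RalA cKO 2 or RalA cKO 4 (log2 -1.26 to -0.92). Exons of Itgam share 68.7% of their bases with Gm49368 on the same strand, which held at most 1.19 CPM, so reads could be split between them.

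Siglech (chr7:55768178-55778925), a sialic acid-binding lectin of microglia, was 4.45, 8.49, 10.8 and 6.001 CPM across controls, 1.79, 2.65, 2.53 and 3.27 CPM across RalA cKO and 8.24, 12.4, 16.7 and 17.7 CPM across RalAB cKO. RalA cKO libraries were all below control, and RalAB cKO 1 lay within the controls. The fall in RalA cKO was -1.53 ± 0.31 (adjusted p = 0.0165) and was lost without control 2 or control 3 (log2 -1.71 to -1.30). The rise in RalAB cKO was 0.89 ± 0.28 (adjusted p = 0.0384) and was lost without control 1, 2 or 4, RalA cKO 2, or RalAB cKO 2, 3 or 4 (log2 0.70 to 1.11). Ly86 (chr13:37345208-37419036), also called MD-1, is the secreted partner of the Toll-like receptor relative Cd180. Ly86 was 6.94, 7.69, 11.8 and 8.73 CPM across controls, 2.95, 1.15, 2.09 and 3.13 CPM across RalA cKO and 15.8, 19.7, 32.1 and 30.9 CPM across RalAB cKO, with 3 separate ranges in the order RalA cKO, control, RalAB cKO. It fell by 1.90 ± 0.31 (adjusted p = 0.00532) in RalA cKO, 3.74-fold, and rose by 1.48 ± 0.27 (adjusted p = 0.00151) in RalAB cKO. Cd180 went from 3.34 to 6.06 CPM across controls to 1.59 to 2.88 CPM across RalA cKO (-1.06 ± 0.26, adjusted p = 0.0393) and 13.1 to 19.6 CPM across RalAB cKO (1.77 ± 0.24, adjusted p = 0.000140). Its fall was lost without control 2, control 3, RalA cKO 2, RalA cKO 4, RalAB cKO 2 or RalAB cKO 4 (log2 -1.20 to -0.92).

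Tmem119, a membrane protein used to tell microglia from blood macrophages, rose 2.31-fold in RalAB cKO, from 8.38 to 20.004 CPM to 28.5 to 36.5 CPM, and was 7.52 to 10.6 CPM across RalA cKO. Selplg, the ligand of P-selectin, rose 2.46-fold, from 11.2 to 28.4 CPM to 30.9 to 55.97 CPM, and was 7.96 to 15.4 CPM across RalA cKO. Cd53, a tetraspanin of white blood cells, and Ptprc, the phosphatase CD45, were near control in RalA cKO and higher in RalAB cKO. Cd53 was 1.77 to 5.25 CPM across controls, 1.88 to 4.91 CPM across RalA cKO (-0.10 ± 0.32, adjusted p = 0.876) and 12.99 to 19.8 CPM across RalAB cKO (2.11 ± 0.31, adjusted p = 0.000271). Ptprc was 0.196 to 1.45 CPM across controls, 0.265 to 1.57 CPM across RalA cKO (0.03 ± 0.52, adjusted p = 0.978) and 3.84 to 6.79 CPM across RalAB cKO (2.25 ± 0.49, adjusted p = 0.00461). The sign of both in RalA cKO turned in some other settings, and Ptprc rested on few counts.

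Among 3 transporters, Ucp2 and Slco2b1 rose in RalAB cKO and Slc2a5 did not pass. Ucp2 (chr7:100493337-100502020), a carrier of the inner mitochondrial membrane, was 10.5, 17.3, 17.7 and 11.9 CPM across controls, 9.12, 8.22, 9.60 and 9.75 CPM across RalA cKO and 42.8, 77.3, 86.7 and 94.6 CPM across RalAB cKO. The 3 groups did not overlap. Its rise was 2.39 ± 0.23 (adjusted p = 1.55e-05) over control, 5.24-fold, and 3.04 ± 0.24 (adjusted p = 3.35e-06) over RalA cKO, while the difference between RalA cKO and control did not pass (-0.64 ± 0.23, adjusted p = 0.125). Slco2b1, an organic anion transporter, was 10.2 to 25.2 CPM across controls and 35.4 to 58.02 CPM across RalAB cKO, 2.81-fold higher. In RalA cKO it was 6.28 to 9.56 CPM, a fall (-1.01 ± 0.25, adjusted p = 0.0474) that 2 of the 12 fits with a library left out kept, those without control 1 or RalAB cKO 1 (log2 -1.19 to -0.75). Slc2a5 (chr4:150119283-150144169), the fructose transporter GLUT5 and a microglial marker, was 1.05, 2.30, 3.06 and 1.27 CPM across controls, 0, 0.442, 0.873 and 0.854 CPM across RalA cKO and 0, 2.12, 0.400 and 2.74 CPM across RalAB cKO. The 0 counts in RalA cKO 1 and RalAB cKO 1 allow up to 0.268 and 0.223 CPM (3 counts each, counting error only). RalAB cKO libraries split, with 2 within the control range and 2 below it, and against control RalAB cKO differed by -0.55 ± 0.81 (adjusted p = 0.692) and RalA cKO by -1.79 ± 0.89 (adjusted p = 0.247).

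All 4 genes of lysosomes and endosomes rose in RalAB cKO (9.39% of all tested genes), and none passed the test in RalA cKO with edgeR. At an unadjusted p under 0.05, 3 of the 4 were lower in RalA cKO (11.3% of all tested genes). Laptm5 (chr4:130913125-130936141), a lysosomal membrane protein of blood cells, was 33.01, 50.05, 79.4 and 49.9 CPM across controls, 34.4, 17.7, 35.3 and 30.03 CPM across RalA cKO and 124, 167, 230.5 and 242 CPM across RalAB cKO. It rose by 1.84 ± 0.29 (adjusted p = 0.00107), and in RalA cKO, where 2 libraries reached above control 1, it differed by -0.86 ± 0.29 (adjusted p = 0.119). Cd68, a lysosomal glycoprotein of phagocytes, rose 5.39-fold, from 5.57 to 14.3 CPM to 34.4 to 77.2 CPM, and was 3.89 to 7.26 CPM across RalA cKO. Pld4 (chr12:112760655-112768990), an endolysosomal nuclease, was 9.89, 12.7, 14.8 and 9.82 CPM across controls, 6.97, 5.84, 7.42 and 6.62 CPM across RalA cKO and 26.7, 36.9, 55.4 and 51.6 CPM across RalAB cKO. Its ranges were apart in all 3 groups, and it rose by 1.85 ± 0.21 (adjusted p = 3.18e-05) in RalAB cKO over control and by 2.67 ± 0.22 (adjusted p = 3.35e-06) over RalA cKO, with -0.82 ± 0.22 (adjusted p = 0.0557) between RalA cKO and control. Unc93b1 (chr19:3935186-3949340), which carries nucleic acid-sensing Toll-like receptors to endosomes, was 40.9, 38.3, 38.6 and 40.9 CPM across controls, 40.5, 37.7, 37.4 and 45.8 CPM across RalA cKO and 58.5, 76.1, 102 and 85.9 CPM across RalAB cKO. Its control values were the tightest of the 32 relative to their mean, RalA cKO lay over them (0.02 ± 0.14, adjusted p = 0.931), and the rise in RalAB cKO was 2.03-fold (1.02 ± 0.14, adjusted p = 0.000140).

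All 8 genes of cytoplasmic signalling and the cytoskeleton rose in RalAB cKO (9.39% of all tested genes). Pik3ap1, Sla, Ptk2b and Efhd2 fell in RalA cKO (1.07% of all tested genes). Fermt3 (chr19:6998958-7019469), also called kindlin-3, activates integrins in blood cells. It was 4.65, 5.24, 7.13 and 4.18 CPM across controls, 2.95, 2.39, 3.58 and 2.56 CPM across RalA cKO and 14.5, 21.1, 27.7 and 31.4 CPM across RalAB cKO. Its 3 ranges were apart, and it rose by 2.15 ± 0.24 (adjusted p = 2.93e-05) in RalAB cKO while RalA cKO did not pass (-0.89 ± 0.26, adjusted p = 0.0696). Efhd2 (chr4:141858142-141874920), a calcium-binding regulator of actin, was 21.7, 20.4, 20.3 and 21.8 CPM across controls, 14.8, 13.97, 14.1 and 12.7 CPM across RalA cKO and 33.8, 43.9, 45.1 and 53.8 CPM across RalAB cKO. Replicates of Efhd2 lay close together, and it fell in RalA cKO (-0.60 ± 0.13, adjusted p = 0.0267) and rose in RalAB cKO (1.07 ± 0.13, adjusted p = 6.08e-05). The fall was lost without control 2, 3 or 4, or RalA cKO 2 or 4 (log2 -0.63 to -0.56). Ptk2b (chr14:66153257-66281052), the kinase Pyk2, was 5.17, 7.14, 5.88 and 4.73 CPM across controls, 2.502, 3.89, 2.62 and 2.06 CPM across RalA cKO and 8.24, 10.1, 10.2 and 12.3 CPM across RalAB cKO. It fell by 1.05 ± 0.23 (adjusted p = 0.0255) in RalA cKO, a call lost without control 2, control 3 or RalA cKO 4 (log2 -1.26 to -0.92). In RalAB cKO it rose by 0.83 ± 0.22 (adjusted p = 0.0139), a call lost without RalAB cKO 4 (log2 0.73 to 0.96 over the libraries left out).

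Of the remaining signalling genes, Aif1, the actin-binding protein IBA1, was 0.851 to 2.46 CPM across controls, 0.796 to 1.42 CPM across RalA cKO and 6.45 to 8.15 CPM across RalAB cKO, 3.89-fold higher. Vav1, a guanine nucleotide exchange factor of blood cells, rose 4.10-fold, from 2.16 to 5.56 CPM to 10.2 to 19.2 CPM, and was 1.15 to 3.14 CPM across RalA cKO. Lyn, a Src family kinase, rose 2.81-fold, from 3.995 to 10.3 CPM to 14.6 to 25.1 CPM, and was 2.21 to 4.63 CPM across RalA cKO. Pik3ap1, an adaptor of phosphoinositide kinase signalling, was 2.16 to 3.69 CPM across controls, 1.22 to 1.70 CPM across RalA cKO (-1.14 ± 0.26, adjusted p = 0.0283) and 7.87 to 12.4 CPM across RalAB cKO (3.14-fold). Sla, a Src-like adaptor, was 1.31 to 2.82 CPM, 0.524 to 0.973 CPM (-1.38 ± 0.35, adjusted p = 0.0479) and 2.90 to 5.02 CPM (0.99 ± 0.32, adjusted p = 0.0388) in the same order. The fall of Pik3ap1 was lost without control 2, 3 or 4 or RalA cKO 2, 3 or 4 (log2 -1.28 to -1.04). That of Sla was kept in 2 of 12 such fits (log2 -1.56 to -1.22), and its rise in RalAB cKO in 7 of 12 (log2 0.81 to 1.15). Olfml3, a secreted glycoprotein, was 11.003 to 27.6 CPM across controls, 7.52 to 12.4 CPM across RalA cKO (-0.92 ± 0.26, adjusted p = 0.0674) and 37.3 to 65.3 CPM across RalAB cKO (1.56 ± 0.25, adjusted p = 0.000716).

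**Figure D3:**
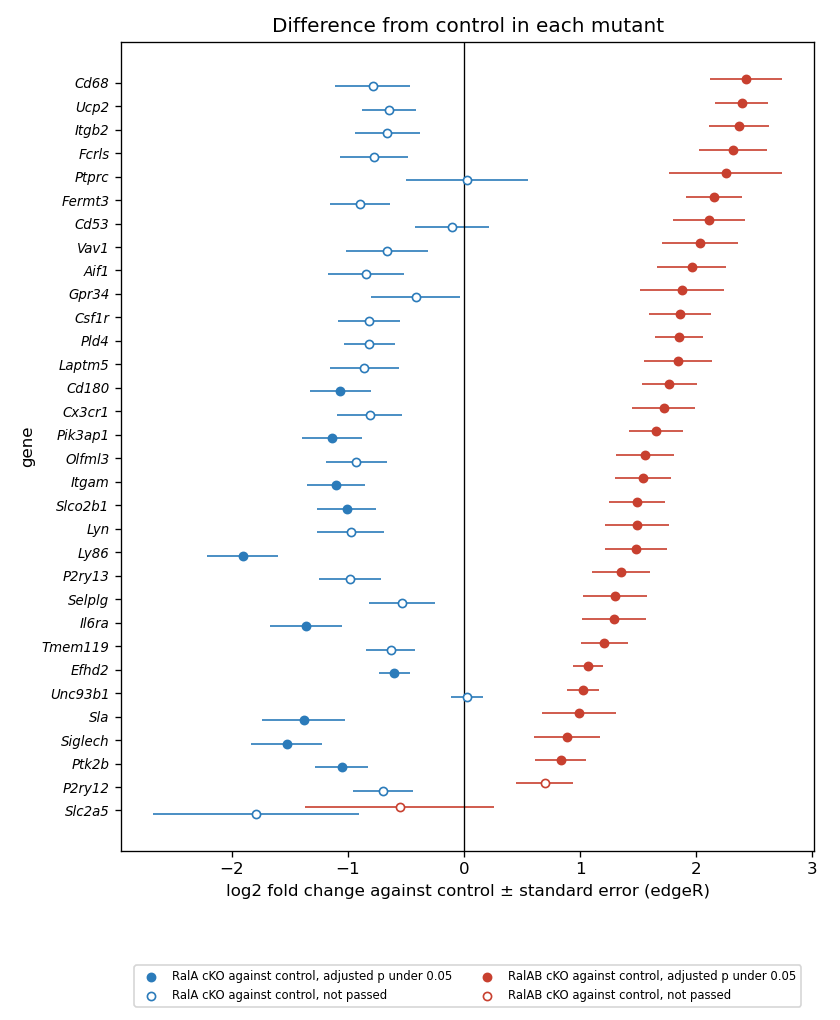
Log2 fold change against control ± standard error from edgeR for each gene, ordered by its value in RalAB cKO, in blue for RalA cKO and red for RalAB cKO, with filled points where the adjusted p was under 0.05. The 30 filled red points all lie to the right of 0 and the 10 filled blue points all lie to its left.

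Within a group the genes largely moved by library. Of the 32 genes 24 were highest in control 3 and 25 lowest in control 1. Unc93b1 (38.3 to 40.9 CPM across controls) and Efhd2 (20.3 to 21.8 CPM) did not follow this order. Unc93b1 was highest in control 1 and Efhd2 lowest in control 3. Unc93b1 made up 5.99% to 12.6% of the summed CPM in control and 11.5% to 17.9% in RalA cKO, so it weighs on these sums and shares. RalA cKO 2 was the lowest of its group for 22 genes, and RalAB cKO 1 for 28. Of the RalAB cKO libraries, number 3 was the highest for 17 genes and number 4 for 15.

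The rise in RalAB cKO was not even across the set. As a share of the summed CPM of the 32 genes, Fcrls made up 7.53% ± 0.828 in control and 11.6% ± 0.482 in RalAB cKO (mean ± SD, n = 4). Ucp2 went from 3.06% ± 0.455 to 4.78% ± 0.696, Itgb2 from 0.827% ± 0.123 to 1.27% ± 0.0502, Cd53 from 0.767% ± 0.157 to 1.05% ± 0.114 and Csf1r from 18.3% ± 0.803 to 20.2% ± 0.528. For these 5 genes every RalAB cKO share was above every control share. For 6 genes every RalAB cKO share was below every control share. P2ry12 made up 2.66% ± 0.524 in control and 1.36% ± 0.374 in RalAB cKO, Siglech 1.54% ± 0.222 and 0.870% ± 0.0814, and Selplg 3.70% ± 0.522 and 2.84% ± 0.138. Unc93b1 went from 8.93% ± 2.75 to 5.21% ± 0.406, Ptk2b from 1.26% ± 0.332 to 0.671% ± 0.0957 and Slc2a5 from 0.391% ± 0.104 to 0.0801% ± 0.0808. Shares of the other 21 genes overlapped. Tmem119, a marker of resting microglia like P2ry12, held 2.87% ± 0.241 of the sum in control against 2.11% ± 0.374 in RalAB cKO with overlap, and 3.16% ± 0.427 in RalA cKO, where each library was above every RalAB cKO library. The share of Cx3cr1 was 6.63% ± 1.07 in control and 6.88% ± 0.609 in RalAB cKO, with overlapping values. Between RalA cKO and control, the shares of Siglech, Itgam and Ly86 were lower without overlap, and those of the other 29 overlapped. Shares add up to 100, so a rise of some genes lowers the rest, and no test was made on them.

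**Figure D4:**
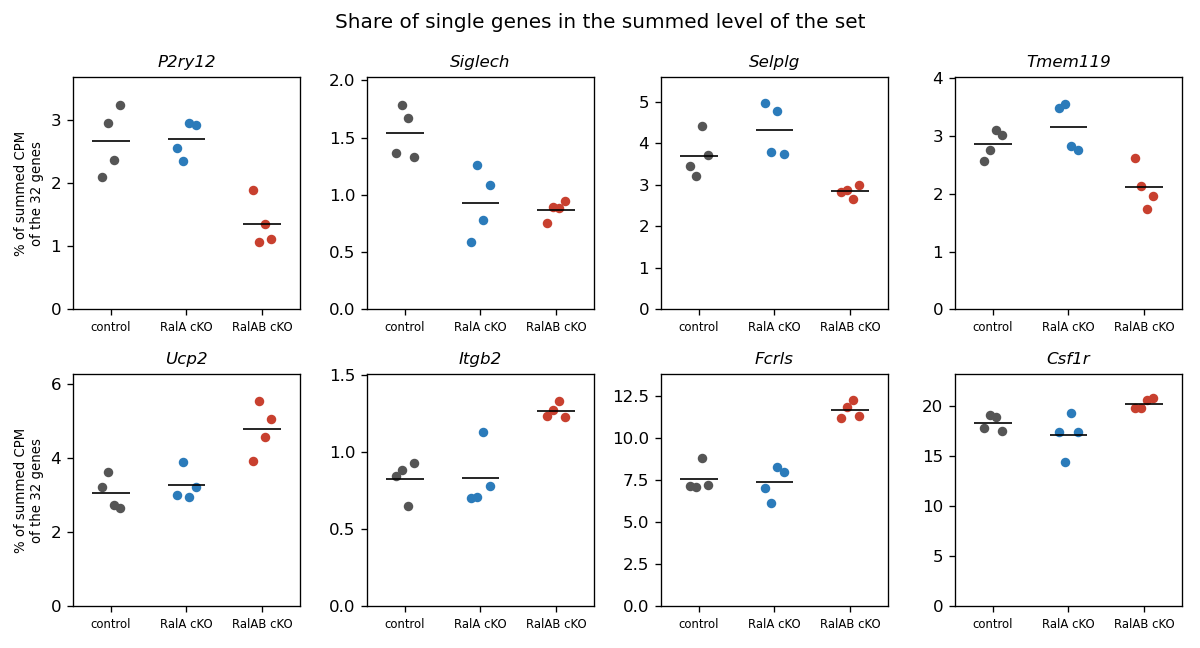
Share of 8 genes in the summed CPM of the 32 genes, with 1 point per library and a line at the group mean, on axes that start at 0. RalAB cKO points lie below all control points for P2ry12, Siglech and Selplg, above them for Ucp2, Itgb2, Fcrls and Csf1r, and overlap with them for Tmem119.

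Other genes of microglia and macrophages moved with the set. With edgeR 38 of 40 such genes rose and 0 fell in RalAB cKO, where 9.39% of all tested genes rose and 9.02% fell. At an unadjusted p under 0.05, 39 were higher and 0 lower (16% of all tested genes higher). Their median log2 fold change was 1.99. Of these 40, Cd86 and Runx1 passed the filter on low counts only through the RalAB cKO libraries, and 36 of the other 38 rose. Spi1, which encodes PU.1, was 2.29, 4.28, 6.25 and 2.27 CPM across controls, 2.86, 1.86, 3.84 and 2.63 CPM across RalA cKO and 11.7, 17.6, 21.98 and 26.3 CPM across RalAB cKO, a rise of 2.35 ± 0.33 (adjusted p = 0.000237). The 4 with the smallest p were Cd14, a co-receptor for bacterial lipopolysaccharide (4.47 ± 0.42, adjusted p = 1.52e-05), Trem2, a lipid receptor (2.81 ± 0.27, adjusted p = 2.02e-05), and Fcgr3 (2.51 ± 0.26, adjusted p = 2.35e-05) and Fcer1g (2.36 ± 0.26, adjusted p = 2.40e-05), chains of Fc receptors. Sall1, a transcription factor of microglial identity, was 90.95 to 142 CPM across controls and 82.97 to 123 CPM across RalAB cKO and differed by -0.13 ± 0.15 (adjusted p = 0.593). In RalA cKO 1 of the 40, the phosphatase gene Inpp5d, fell (-1.23 ± 0.27, adjusted p = 0.0267), where 1.07% of all tested genes fell. This count ran from 0 to 11 with a library left out. DESeq2 called 8 lower (3.49% of all tested genes) and limma-voom 9 (5.51%). At an unadjusted p under 0.05 edgeR gave 23 lower and 0 higher (11.3% of all tested genes lower). Against RalA cKO, 38 of 40 were higher in RalAB cKO (7.03% of all tested genes), with a median of 2.82.

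Genes of reactive phagocytes, which microglia raise around damage, also rose in RalAB cKO. Of 14 listed, 7 passed the filter on low counts without the RalAB cKO libraries. Of these 7, 5 rose in RalAB cKO (9.39% of all tested genes), with a median log2 fold change of 1.44. Another 6 (Spp1, Lgals3, Igf1, Itgax, Cst7 and Clec7a) passed the filter only through RalAB cKO, the group where they were high, so their number is no result, and their fold changes rest on few counts in control. Lpl, lipoprotein lipase, which was among the 7, rose by 3.29 ± 0.39 (adjusted p = 7.60e-05). Of the 6, Spp1, or osteopontin, was 0.524, 0.397, 0.125 and 0.0909 CPM across controls and 13.7, 14.2, 19.3 and 12.8 CPM across RalAB cKO (5.64 ± 0.57). Lgals3, or galectin-3 (4.79 ± 0.50), and the growth factor gene Igf1 (4.20 ± 0.61) were also among the 6, and the values of these genes are given as description only. In RalA cKO 0 of the 13 tested passed with edgeR (1 higher at an unadjusted p under 0.05, 1 higher by DESeq2 and 0 by limma-voom), with a median of 0.01. The 6 that passed the filter only through RalAB cKO were low in both groups compared and could hardly pass. This count and median therefore do not show that reactive genes were unchanged in RalA cKO. Of the 2 that did not pass in RalAB cKO, Cd9 differed by 0.12 ± 0.13 (adjusted p = 0.586) and Fabp5 by -0.04 ± 0.12 (adjusted p = 0.861).

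Of 11 genes for signals that act on microglia, 9 were tested. Csf1, the ligand of Csf1r, was 99.5 to 127 CPM across controls, 114 to 136 CPM across RalA cKO and 108 to 125 CPM across RalAB cKO and differed by 0.02 ± 0.10 (adjusted p = 0.911) in RalAB cKO. Il34, its other ligand, reached at most 0.563 CPM in any library and was not tested. Cx3cl1, the ligand of Cx3cr1, was 15.4, 11.03, 28.005 and 9.82 CPM across controls and 8.61, 5.47, 2.56 and 5.25 CPM across RalAB cKO (-1.56 ± 0.40, adjusted p = 0.0146), and it was highest in control 3. Cd200, a surface protein that restrains macrophages, was 29.7, 32.1, 35.1 and 31.6 CPM across controls, 25.6, 25.5, 16.8 and 22.98 CPM across RalA cKO and 12.5, 7.19, 11.2 and 7.15 CPM across RalAB cKO, with all RalAB cKO libraries below the others. It fell by 1.76 ± 0.19 (adjusted p = 2.25e-05) in RalAB cKO, where Tgfb1, which microglia need for their resting state (1.67 ± 0.29, adjusted p = 0.00112), its receptor gene Tgfbr2 (1.80 ± 0.34, adjusted p = 0.00196) and Sirpa, a receptor for the signal Cd47 (1.64 ± 0.22, adjusted p = 0.000244), rose. In RalA cKO Smad3, a transducer of TGF-beta signals, fell (-0.44 ± 0.11, adjusted p = 0.0435), and with a library left out 0 to 2 of the 9 fell. At an unadjusted p under 0.05 edgeR gave 6 of the 9 lower and 0 higher, where 11.3% of all tested genes were lower. DESeq2 called 2 lower (3.49%) and limma-voom 3 (5.51%).

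Most markers of other white blood cells were low. Chil3, of monocytes, S100a9, Ly6g, Retnlg and Camp, of neutrophils, and Cd3e, of lymphocytes, had 0 counts in all 12 libraries (a count of 0 allows up to 3 counts). The monocyte receptor gene Ccr2 reached at most 0.268 CPM. The 8 neutrophil genes summed to 0 to 0.688 CPM across controls, 0 to 0.349 CPM across RalA cKO and 0 to 0.480 CPM across RalAB cKO, and none were tested. The 9 lymphocyte genes summed to 0.262 to 0.750 CPM, 0.268 to 0.873 CPM and 1.20 to 1.83 CPM in the same order, and most of the last was Cd79b at 0.668 to 1.47 CPM. The 7 monocyte genes summed to 104 to 179 CPM, 80.7 to 122 CPM and 107 to 176 CPM, nearly all of it from Vcan and Fn1, and neither passed in a mutant against control with edgeR (in RalA cKO both were lower at an unadjusted p under 0.05, and DESeq2 and limma-voom each called 1 lower). Fn1, or fibronectin, was higher in RalAB cKO than in RalA cKO (1.43 ± 0.33, adjusted p = 0.0105), also in each fit with a library left out. Against control Fn1 passed in RalAB cKO without control 3, where it was highest (log2 0.97, adjusted p = 0.00558). The 10 genes of macrophages at brain borders summed to 9.99 to 18.3 CPM across controls, 10.04 to 14.1 CPM across RalA cKO and 16.7 to 21.8 CPM across RalAB cKO. Of the 3 tested, Folr2 rose in RalAB cKO (0.84 ± 0.20, adjusted p = 0.00866), while Mrc1 differed by 0.04 ± 0.46 (adjusted p = 0.972) and F13a1 by -0.26 ± 0.62 (adjusted p = 0.819).

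Lists of other tissue cells did not rise with the microglial genes in RalAB cKO. With edgeR, 5 of 8 astrocyte genes (3 to 5 with a library left out) and 3 of 9 tested neuronal genes (2 to 5) fell and 0 rose. Of all tested genes 9.02% fell with edgeR. DESeq2 called 5 genes of each list lower (10.3% of all tested genes) and limma-voom 6 astrocyte and 5 neuronal genes (14.4%). At an unadjusted p under 0.05 edgeR gave 5 and 8 lower (16%). None of these gave a higher gene. None of 7 tested endothelial or 6 tested pericyte and fibroblast genes passed in either direction (unadjusted p under 0.05 for 0 and 1, both tools besides edgeR 0), and of 5 erythroid genes 1 fell. Of the 12 oligodendrocyte genes, Mog (-0.60 ± 0.13, adjusted p = 0.00473) and Mobp (-0.56 ± 0.12, adjusted p = 0.00489), both of myelin, were among those that fell, and Myrf, a regulator of myelin genes, rose (0.40 ± 0.12, adjusted p = 0.0257). The call of Myrf was lost without control 2, 3 or 4 or RalAB cKO 2, 3 or 4 (log2 0.33 to 0.48). DESeq2 called 2 of the 12 higher (11.7% of all tested genes) and limma-voom 4 (15.8%). In RalA cKO none of the astrocyte, pericyte and fibroblast, erythroid or oligodendrocyte genes passed with edgeR. At an unadjusted p under 0.05, 3 pericyte and fibroblast genes were lower (11.3% of all tested genes) and 6 oligodendrocyte genes higher (11.4%). DESeq2 called 1 oligodendrocyte gene higher (4.56% of all tested genes) and limma-voom 3 (7.39%), and both called 0 of the other 3 lists.

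**Figure D5:**
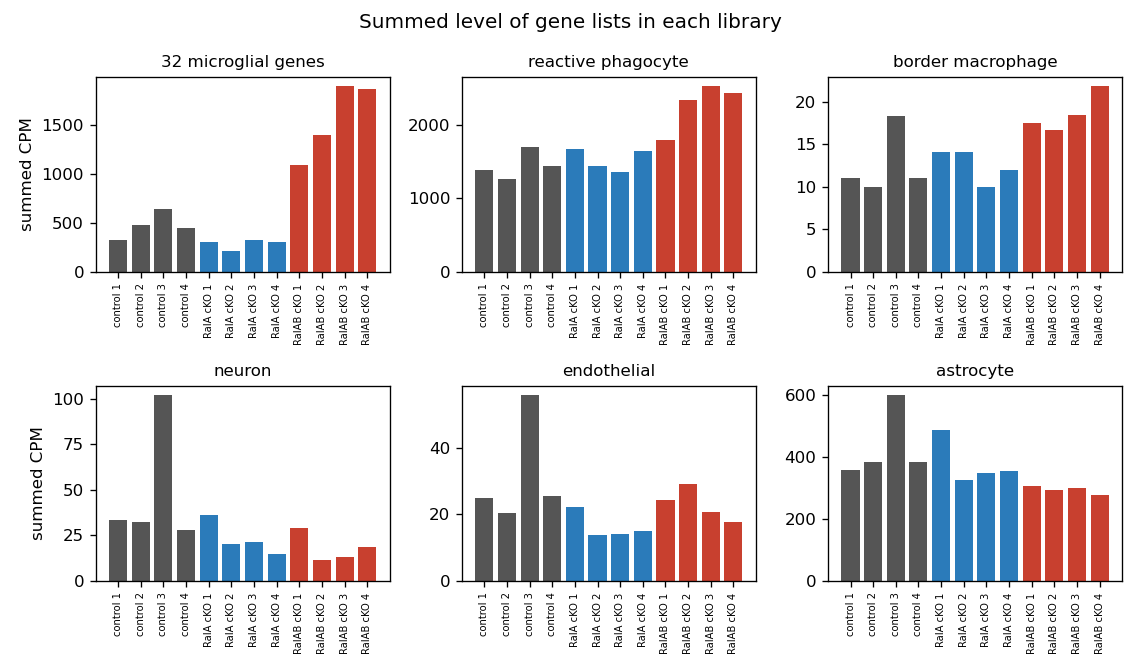
Summed CPM of 6 gene lists in each of the 12 libraries, with bars that start at 0 in gray for control, blue for RalA cKO and red for RalAB cKO. The 32 microglial genes are highest in the 4 RalAB cKO libraries, while control 3 stands out for neuronal, endothelial and astrocyte genes.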

How the data were processed

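RNA of cells sorted from 12 spinal cords was extracted with Trizol and made into stranded mRNA libraries, per the labels' protocols. The submitters' processing notes name Trimmomatic 0.36, kallisto 0.44 and build GRCm38.p6, without their settings. The deposited files hold 3 values per transcript: estimated counts, TPM and effective length. Estimated counts made by the authors were matched to GENCODE vM21 by transcript identifier (739 of 121843 did not match and held 0.219% to 0.277% of counts), summed per gene and rounded. The deposited TPM values were summed per gene and used for levels between genes, and the deposited effective lengths for 1 alternative.

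The edgeR 4.0.16 filter (minimum count 10, total 15) kept 13456 genes. One fit with a mean per genotype over all 12 libraries, TMM scaling and robust quasi-likelihood F tests (R 4.3.3, limma 3.58.1, DESeq2 1.42.0 for alternatives) gave 3 comparisons, adjusted by Benjamini-Hochberg over all tested genes at 0.05. Standard errors were derived as the absolute log2 fold change over the square root of F. The common biological coefficient of variation was 0.199. On simulated counts with 200 changed genes, 2-fold changes were recovered in 79%, 75% and 72% of cases (RalA cKO and RalAB cKO against control, then the mutants against each other) over 13286, 13293 and 13287 genes. Changes of 1.5-fold were recovered in 31%, 39% and 28%, and 8.33%, 2.56% and 3.85% of the calls were false.

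The labels name individual mice, so libraries were treated as separate animals. No 2 libraries of a group were duplicates (chi-square per degree of freedom 9.09 to 39.5). The 32 genes, the 13 lists of other genes and the alternatives were chosen with earlier results of these data known. Values in every library are printed for the 4 most abundant members, the 3 with the smallest p in each direction of each comparison and those that did not pass in RalAB cKO. The others are given by their range, and of other lists up to 4 genes with the smallest p, plus genes named for their role. Alternatives were other scalings, filters and tests, a fit of 2 groups alone, a block for mouse number, length offsets, a covariate of Y-linked expression, and leaving out each library. Values of some genes of these lists are not reported here.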

Additional observations from a re-analysis of the deposited data

Results flagged for a closer look

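Of 99 groups of 4 libraries checked, 4 held a library whose distance from the nearest other library exceeded the 95% critical value of Dixon's ratio, and chance alone flags about 1 group in 20. In control, control 1 was the low library for 3 genes. Itgb2 was 2.75 CPM there against 4.18 to 4.20 CPM in the other controls (ratio 0.985). P2ry12 was 6.81 CPM against 14.04 to 15.3 CPM (ratio 0.856). Ptprc was 0.196 CPM against 1.25 to 1.45 CPM (ratio 0.837). In RalA cKO, Cx3cr1 was 12.2 CPM in RalA cKO 2 against 19.996 to 20.7 CPM in the other 3 (ratio 0.914).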

How the results depend on the processing

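The 27 genes that rose in RalAB cKO in each of the 22 other settings were all but Siglech, Ptk2b and Sla of the 30, and the 31 higher than in RalA cKO remained in each. The number that rose against control was 27 to 31. The number that fell in RalA cKO was 10 in the fit reported (1.07% of all tested genes fell). It was 19 with the DESeq2 test (3.49%), 19 with limma-voom and quality weights (5.51%), 6 with mouse number as a replicate block (0.632%), 4 with Y-linked expression as a covariate (0.297%) and 4 with only the 2 groups compared (0.882%). With a library left out it ran from 1 without control 3 (0.478%) to 19 without control 1 (2.47%). The cause was not tested. Medians kept their sign in every setting, and library totals alone shifted the median of all genes by -0.14 in RalA cKO and -0.10 in RalAB cKO.

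Ptprc, Unc93b1 and Cd53 changed sign in RalA cKO without passing a test in any setting. Ptprc was -0.090 with library totals, -0.74 with limma-voom, -0.36 with length offsets and -0.15 with the Y-linked covariate. Unc93b1 was -0.093, -0.041 and -0.12 with library totals, length offsets and the covariate. With a library left out, Ptprc was -0.34 to 0.34, Unc93b1 -0.041 to 0.062 and Cd53 -0.34 to 0.11.

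Mouse numbers did not pair the libraries. Deviations of same-numbered libraries correlated at -0.198 to 0.176, and 3 of 12 pairs exceeded 0.1. With the replicate block 6 genes fell in RalA cKO and 31 rose in RalAB cKO, where P2ry12 then passed at 0.70 (adjusted p = 0.0491).

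Depth limits the lowest genes. Ptprc, Il6ra, Sla, Slc2a5, Aif1 and Gpr34 lay under 1 CPM in at least 1 library.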

Other observations

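Ptprc counts were assigned to different annotated transcripts in different groups. The transcript Ptprc-203 held 51.9, 33.2, 85 and 70 estimated counts in RalAB cKO mice 1 to 4 and 0 in the other 8 libraries. Ptprc-204 held 1, 15.7, 20 and 15 in control, 17, 2, 7.54 and 14 in RalA cKO, and 8.07, 0, 0 and 0 in RalAB cKO. The sequences of both transcripts share 4552 of their 31-base words, out of 4672 in Ptprc-203 and 4581 in Ptprc-204, so few reads could tell them apart.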
